A study of Homo sapiens with 12 samples.

Results

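H3K27ac CUT&RUN profiles of HCT116 cells exposed to TNFα were compared with profiles of untreated cells. The comparison takes the 4 libraries that the labels call H3K27ac and either untreated (replicates 1 and 2) or TNFα-treated (replicates 1 and 2), out of 12 samples in the series, of which 6 are H3K27ac libraries with a peak list. HCT116 is an established human colorectal cancer line, and all libraries came from this line grown in the same medium; the treated cultures received TNFα at 100 ng/ml for 24 h and the controls received no addition. The labels number the replicates without saying whether they were separate cultures, so the spread between them may be technical. The IgG samples are not analysed here, and the cobimetinib libraries (1 μM for 24 h) are quoted only beside single regions.

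TNFα is an inflammatory cytokine that binds receptors on the cell surface and, through adaptor and kinase complexes, frees NF-κB from its IκB inhibitors, so that NF-κB enters the nucleus and binds κB sites at promoters and enhancers. The same receptors also activate MAP kinases and the AP1 factors of the FOS and JUN families. Many NF-κB targets encode chemokines, survival factors and the inhibitors that later end the response. Acetylation of histone H3 at lysine 27 marks active promoters and enhancers, so a region that gains it is a candidate site of regulation, while the gene it acts on is not given by the mark.

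The following stretches of hg38 come from regions that stood nearer the top of both TNFα lists than of both untreated lists, or that had a peak in the TNFα lists only, and they are shown because each holds a match to the κB consensus beside a gene of the pathway. The consensus has 10 bases, begins with GGG and ends with CC, and was searched in either orientation. For these stretches the whole region was searched, not only the 500 bp windows used for the shares given below. Capitals mark the match, 30 bases are shown on either side, and all stretches are read from the plus strand.
TNIP1 start, chr5:151094206-151094275: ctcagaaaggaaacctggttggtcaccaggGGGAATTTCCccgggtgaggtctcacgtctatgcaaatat
IRAK2 intron, chr3:10192264-10192333: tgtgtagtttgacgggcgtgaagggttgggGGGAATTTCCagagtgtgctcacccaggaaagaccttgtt
BIRC3 start, chr11:102317255-102317324: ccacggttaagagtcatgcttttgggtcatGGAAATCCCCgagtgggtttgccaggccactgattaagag
TRAF1 start, chr9:120926529-120926598: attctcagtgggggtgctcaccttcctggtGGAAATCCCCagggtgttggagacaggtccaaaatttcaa
TNFRSF9 start, chr1:7940873-7940942: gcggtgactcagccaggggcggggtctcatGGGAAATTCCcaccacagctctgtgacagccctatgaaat
TAPBP start, chr6:33314495-33314564: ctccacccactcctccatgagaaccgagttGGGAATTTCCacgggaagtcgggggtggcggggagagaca
IL1B distal region, chr2:112812085-112812154: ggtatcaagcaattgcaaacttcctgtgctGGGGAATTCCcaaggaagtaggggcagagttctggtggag
STAT3 region, chr17:42329135-42329204: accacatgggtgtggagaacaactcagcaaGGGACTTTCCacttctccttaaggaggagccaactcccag
KLF6 distal region, chr10:3806348-3806417: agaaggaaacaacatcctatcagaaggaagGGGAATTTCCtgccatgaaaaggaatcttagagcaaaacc
The TNIP1, IRAK2, TAPBP and KLF6 stretches carry the same word, GGGAATTTCC. The BIRC3 and TRAF1 stretches share GGAAATCCCC. Other regions that ranked higher held the AP1 word, TGACTCA or TGAGTCA, and no κB match. An example is the region between CXCL3 and its neighbours, which is shown, with the word in capitals, because it ranked among the highest of all with TNFα.
CXCL2 and CXCL3 distal region, chr4:74056741-74056807: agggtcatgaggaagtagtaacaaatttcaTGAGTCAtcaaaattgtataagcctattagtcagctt

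Each deposited list holds peaks with a score from the authors' peak caller. The 20000 best peaks of each of the 4 libraries were merged within 100 bp into 34147 regions, and every region was given the rank of its best peak among these regions in each library, rank 1 being the highest score. A region with no deposited peak was tied last. The lists held between 86952 and 124771 peaks, and the last score taken was 70 and 44 in untreated replicates 1 and 2 and 60 and 54 in TNFα replicates 1 and 2. Read depth is unknown. Untreated replicate 2, whose peak names mark it as merged after resequencing, stood apart. Its ranks correlated with the other libraries at Spearman's rho of 0.269 to 0.311 across regions, against 0.781 to 0.838 among the other 3, its peaks had a median width of 380 bp against 922 to 1265.5 bp, and 7952 regions were held by it alone. The main counts are therefore given with and without it. Of the 12 colorectal epithelium markers 8 had a region within 1 kb of a start. None of the 6 blood markers or of the 6 liver and neuron markers did, and of 6 fibroblast and endothelium markers COL1A1 did.

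More regions stood nearer the top of the list with TNFα than stood lower. A region was called higher when its worse TNFα rank was at least 2-fold better than its better untreated rank, and lower in the converse case. There were 879 higher regions (2.57% of all regions) and 228 lower regions (0.668%). The libraries were also paired across treatments as a gauge of noise. Untreated replicate 1 with TNFα replicate 1 was favoured over the other pair at 490 regions, and untreated replicate 1 with TNFα replicate 2 at 214. Pairs with untreated replicate 2 were favoured at 197 and 119 regions, so the 228 lower regions stood near the count of the first of these. At a 4-fold gap 145 regions were higher and 13 lower, against 38 and 9 for the mixed pairs with untreated replicate 1 and 27 and 4 for those with untreated replicate 2. Without any minimum gap, the ranks of the groups did not overlap at 6617 regions in the higher direction (19.4%) and 3505 in the lower (10.3%). With regions rebuilt without untreated replicate 2, 1348 of 26207 regions were higher (5.14%) and 1563 lower (5.96%), and without untreated replicate 1 3768 of 32195 were higher and 4908 lower. Against either untreated library alone, lower regions were thus more numerous than higher ones.

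**Figure D1:**
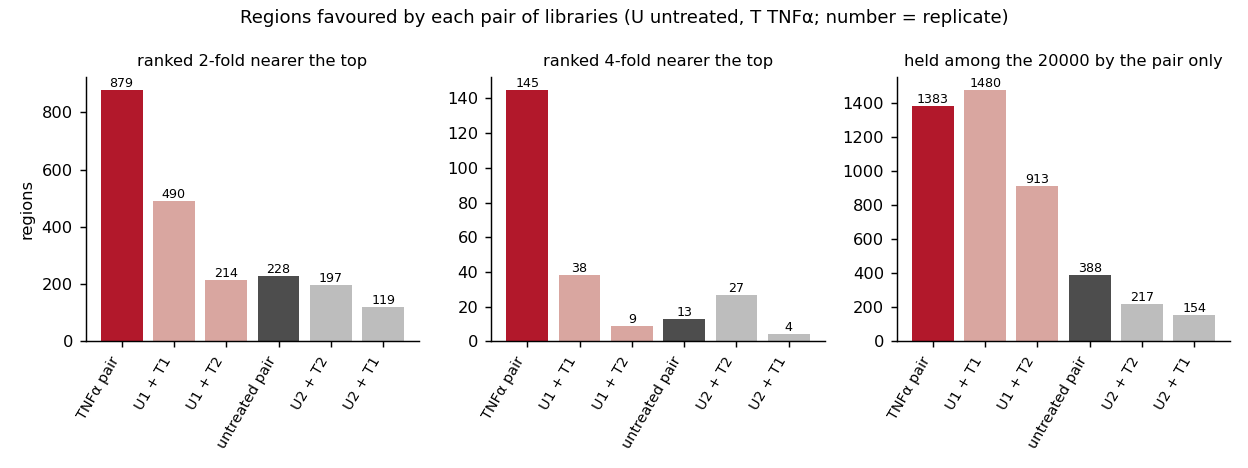
Number of regions (vertical axes) that each pair of libraries favoured, by a 2-fold gap in rank, a 4-fold gap, or presence among the 20000 best peaks; red and black bars are the pairs of the design and pale bars the mixed pairs (U untreated, T TNFα, with the replicate number). The TNFα pair favoured 879 regions at a 2-fold gap against 490 and 214 for mixed pairs, while by presence its 1383 regions lay between 1480 and 913.

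Presence gave a weaker separation than rank. The TNFα libraries alone held 1383 regions (4.05%) among their 20000 best peaks and the untreated libraries alone held 388 (1.14%). Mixed pairs with untreated replicate 1 alone held 1480 and 913 regions, so the gained count lay within the range that mixed pairs gave, and mixed pairs with untreated replicate 2 alone held 217 and 154. Without untreated replicate 2 in the comparison 1708 regions were gained and 2830 lost, the reverse balance. Over the whole deposited lists, 602 regions (1.76%) had a peak in both TNFα libraries and in neither untreated library, and 410 (1.2%) showed the converse, against 295 to 673 for the mixed pairs.

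A fit across all regions with limma, on normal scores of the ranks, found 8 higher regions (0.0234%) and no lower region (0%) at an adjusted p under 0.05, and 1480 at an unadjusted p under 0.05 (1027 higher, 453 lower). With 2 libraries a group, an exact permutation test of a single region cannot go below p = 0.333. Of the 8 regions, 5 had no peak in either untreated list, and the best untreated rank of the others was 12195. The best of them by p lay between genes at chr19:201789-202269 and ranked 897 and 1619 in the TNFα libraries, with no peak in either untreated or cobimetinib library (limma, difference 3.01 ± 0.57 in normal score, SE, adjusted p = 0.0148). In an intron of LMF1, which encodes a lipase maturation factor, chr16:914443-914897 ranked 12195 in untreated replicate 1, had no peak in replicate 2, and ranked 236 and 312 with TNFα. In an intron of CDK6, a kinase of the G1 phase, chr7:92641569-92642674 ranked 24685 in untreated replicate 1, had no peak in replicate 2, and ranked 1123 and 1091 with TNFα. The other 5 lay at ITGAM, 20038 bp from AGPAT4, and on chromosomes 1, 9 and 11 away from protein-coding starts. All 8 calls were lost when untreated replicate 2 or either TNFα library was left out, and without untreated replicate 1 the fit called 8890 regions, of which 7413 were lower.

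**Figure D2:**
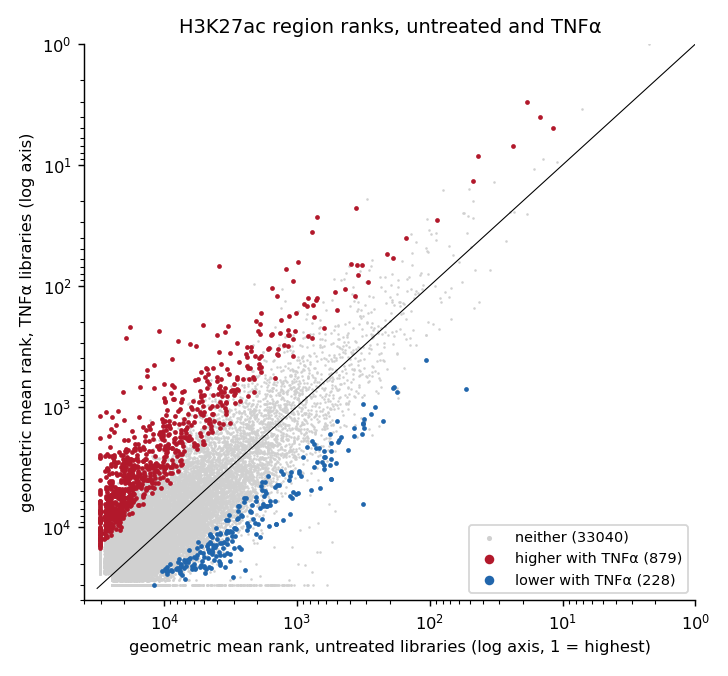
Each point is a region, placed by its geometric mean rank in the untreated libraries (horizontal) and in the TNFα libraries (vertical), both on reversed log axes with rank 1 at the far end; red marks the 879 higher and blue the 228 lower regions. Higher regions reach ranks under 100 with TNFα, and few lower regions do so in untreated cells.

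The widest gap among all regions was at chr2:207393813-207396042, between genes and about 134 kb from the start of CREB1, the cAMP response factor. This region ranked 3493 and 4233 in the untreated libraries and 64 and 74 in the TNFα libraries, a 47.2-fold gap, and 10080 and 9772 in the cobimetinib libraries. It thus lay among the 100 best regions with TNFα and far below in every other library.

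An exon of PEX14 about 44.8 kb from CASZ1, a zinc finger factor, ranked 6694 and 18026 without and 176 and 314 with TNFα. The HDAC9 promoter (a histone deacetylase) at chr7:18508083-18510070 ranked 4384 and 6022 without and 188 and 242 with TNFα, and it was the promoter with the widest gap, 18.1-fold. A region at chr11:13072907-13074446, about 63.6 kb from RASSF10, ranked 13085 and 25401 without and 119 and 406 with TNFα. These regions were chosen for the gap between the groups, so their separation follows from the choice.

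Between genes on chromosome 8, 443 kb from RIPK2, a region ranked 17494 and 23481 without and 654 and 863 with TNFα. The last leader outside the pathway lay about 20.6 kb from the start of LVRN, a membrane aminopeptidase, at chr5:115940136-115941872. It ranked 19460 and 25930 in the untreated and 1112 and 1082 in the TNFα libraries. About 11.0 kb away lies a tandem array of 10 AP1 words, spaced as in the LTR10 elements that the study examined. The 2 regions that overlap this array were not called, at 5664 and 1810 without and 2869 and 3419 with TNFα, and at 1042 and 930 without and 1076 and 1228 with TNFα. Regions that hold such an array (3 or more words) numbered 37, of which 6 were higher and 1 was lower, against 2.57% and 0.668% of all regions. Among the 6, the one nearest the top with TNFα, 12003 bp from WNT9A, a Wnt ligand, stood at 272 and 1869 in the untreated, 19 and 38 in the TNFα and 3235 and 6364 in the cobimetinib libraries.

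Signal relays are given first among the genes of the pathway. IRAK2, a kinase of the interleukin-1 and Toll-like receptor pathway that feeds NF-κB, had 3 higher intronic regions. No other region lay in the span from the first to the last of them. The strongest, which holds the κB stretch shown above, ranked 6694 and 6022 in the untreated libraries and 267 and 341 with TNFα, a 17.7-fold gap. With cobimetinib it ranked 15272 and 19809, below both untreated values. The region next to it ranked 23676 and had no peak in the untreated libraries, and ranked 3958 and 6534 with TNFα. The third ranked 12933 and 25401 without and 4342 and 1777 with TNFα. By the rule for a higher region, all 3 stood nearer the top in both TNFα replicates than in either untreated one.

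Among 15 genes of NF-κB subunits and inhibitors, 4 of 61 regions within 50 kb were higher and 0 lower (2.57% and 0.668% of all regions). Without untreated replicate 2 there were 3 higher and 2 lower of 57, against 5.14% and 5.96% of all regions in that version. TNIP1, which encodes a partner of the deubiquitinase A20 that restrains NF-κB, had 3 of the 4. Its start at chr5:151092823-151094835 ranked 23835 and 25006 in the untreated and 6326 and 8660 in the TNFα libraries, with no peak in the cobimetinib libraries. A second promoter of TNIP1 ranked 11106 and 25686 without and 2562 and 1255 with TNFα, a 4.34-fold gap. An intronic region ranked 12933 and 12412 without and 5270 and 3265 with TNFα. The region at another start of the gene did not separate the groups, at 17754 and 12412 against 17632 and 4332.

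The other called member was TNFAIP3, which encodes A20 itself. Its promoter did not separate the groups, at 7518 and no peak without and 9252 and 13376 with TNFα. A region about 26.6 kb from its start, at chr6:137894197-137895725, had no peak in the untreated or cobimetinib libraries and ranked 14634 and 12557 with TNFα. A region 46.3 kb from NFKBIA, the gene of IκBα, was likewise listed only with TNFα, at 18630 and 22458, without passing the 2-fold gap. Of the 61 regions of this list, 2 were listed only with TNFα and 0 only in both untreated libraries (1.76% and 1.2% of all regions). At promoters, 5 of the 14 genes of this list with a promoter region had a better best rank in both TNFα libraries than in both untreated libraries, and 0 had a worse one. Over all 10820 genes with a promoter region the shares were 13.1% better and 15.6% worse. RELB, a subunit of the noncanonical pathway, ranked 1062 and 4427 without and 310 and 828 with TNFα. NFKB1, the p105 and p50 gene, ranked 6998 and 5342 without and 4884 and 3631 with TNFα. The other 3 were NFKBIA, NFKBIB and TNIP1.

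**Figure D3:**
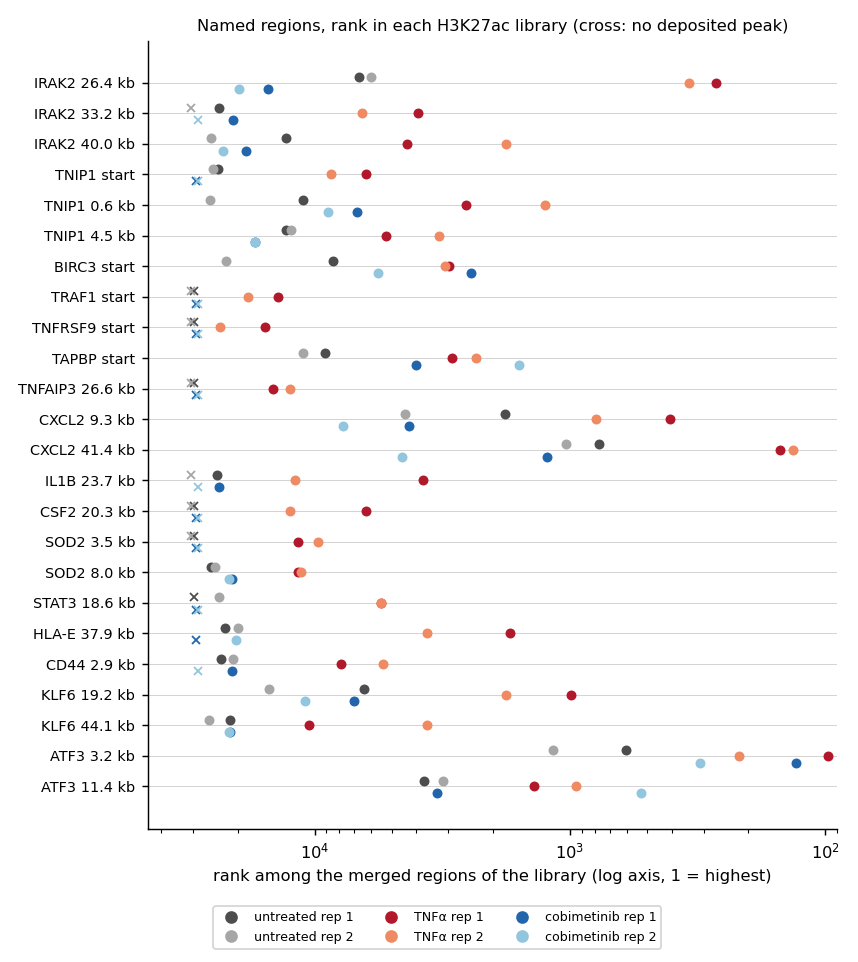
Rank of named regions (rows, with the distance to the start of the gene) in each library on a reversed log axis, so that points to the right stand nearer the top; a cross marks a library with no deposited peak. All rows are regions called higher or promoters listed only with TNFα, so both TNFα points lie to the right of both untreated points by that choice. Cobimetinib points lie on either side.

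Chemokine and cytokine genes had 4 of 64 regions higher and 0 lower (2.57% and 0.668% of all regions). Without untreated replicate 2 they had 6 and 0 of 56, against 5.14% and 5.96% of all regions in that version. CXCL2 and CXCL3 encode neutrophil attractants of the CXC family. The region at chr4:74056122-74057799, 17.4 kb from CXCL3 and 41.4 kb from CXCL2, ranked 768 and 1038 without and 150 and 134 with TNFα. A region 9.3 kb from CXCL2 ranked 1800 and 4427 without and 406 and 790 with TNFα. Both rested on an already high rank in untreated cells, and cobimetinib gave 1228 and 4560 for the first.

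The other cytokine regions were low or absent without treatment. The region that lies 23.7 kb from IL1B and 27.1 kb from IL1A, genes of the interleukin-1 ligands, ranked 24242 and had no peak in the untreated libraries and ranked 3768 and 11958 with TNFα. A region 20.3 kb from CSF2, the gene of the growth factor GM-CSF, had no peak in the untreated or cobimetinib libraries and ranked 6326 and 12557 with TNFα. A peak over an exon of TNF, shared in this window with LTA and LTB, was also listed only with TNFα, at 18189 and 24242. Of the 64 regions of this list, 4 were listed only with TNFα and 0 only in both untreated libraries (1.76% and 1.2% of all regions). At promoters, only 8 of the 25 genes had a region, and of these CXCL1 and IL18 were better in both TNFα libraries and none worse. Over all genes with a promoter region, 13.1% were better and 15.6% worse.

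Receptors and adaptors of TNF signalling included 2 promoters that were listed only with TNFα. Over all 10540 promoter regions, 30 were listed only with TNFα and 52 only in both untreated libraries. Near the genes of this list these counts were 8 and 1 of 142 regions, against 1.76% and 1.2% of all regions. TNFRSF9, a costimulatory receptor, had no promoter peak in the untreated or cobimetinib libraries and ranked 15708 and 23451 with TNFα. TRAF1, an adaptor of TNF receptors, had none in those libraries either and ranked 13912 and 18206 with TNFα. Neither passed the 2-fold gap, because both lie low in the lists. BIRC3, which encodes the ubiquitin ligase cIAP2 that protects cells from death by TNFα, did pass. Its promoter at chr11:102316383-102317978 ranked 8476 and 22172 without and 2983 and 3092 with TNFα. With cobimetinib it ranked 2445 and 5632, so it also stood nearer the top there than in the untreated libraries.

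Of the 142 regions near receptor, survival and death genes, 3 were higher (2.11%, below the 2.57% of all regions) and 2 lower (1.41% against 0.668%). The counts were 3 and 4 of 128 without untreated replicate 2, against 5.14% and 5.96% of all regions in that version. Besides BIRC3, the higher regions were both in SOD2, the gene of mitochondrial superoxide dismutase. One 3.5 kb from a start had no peak in the untreated or cobimetinib libraries and ranked 11656 and 9688 with TNFα, and one 8.0 kb away ranked 25391 and 24497 without and 11656 and 11300 with TNFα. The lower regions lay 23.1 kb from TRADD, the adaptor of TNF receptor 1, and 26.8 kb from GADD45B, a stress gene. The first is the promoter of MATCAP1, which ranked 778 and 402 without and 3606 and 4332 with TNFα. The second ranked 7306 and 2916 without and 15935 and 15340 with TNFα. At promoters of this list, 7 of 22 genes were better in both TNFα libraries and 3 worse (13.1% and 15.6% of all genes with a promoter region). The 3 were TNFRSF10B, TNFRSF21 and CASP8. CASP8, the initiator caspase of receptor-induced death, ranked 3456 and 3402 without and 6326 and 6961 with TNFα.

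Adhesion and antigen presentation genes had 3 of 67 regions higher and 1 lower (2.57% and 0.668% of all regions). Without untreated replicate 2 they had 4 and 2 of 60, against 5.14% and 5.96% of all regions in that version. The promoter of TAPBP, which encodes the peptide-loading chaperone tapasin, ranked 9084 and 11124 without and 2900 and 2336 with TNFα, and 4028 and 1580 with cobimetinib. A region 37.9 kb from HLA-E, a nonclassical class I gene, ranked 22413 and 19962 without and 1726 and 3631 with TNFα, a 5.50-fold gap. The third, an exon of STAT3 at chr17:42328790-42329888, had no peak in untreated replicate 1, ranked 23824 in replicate 2, and ranked 5499 and 5489 with TNFα. The lower region lies 47.4 kb from IRF1 at the promoter of RAD50, a DNA repair gene, and ranked 4474 and 4427 without and 12694 and 10936 with TNFα. IRF1 itself, the interferon response factor, stood the other way at its own promoters, at 9084 and 8990 without and 2020 and 7768 with TNFα. Of 15 genes with a promoter region 5 were better in both TNFα libraries and 0 worse, against 13.1% and 15.6% of all such genes.

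AP1 and MAPK response genes had 5 of 131 regions higher and 1 lower (2.57% and 0.668% of all regions). Leaving out untreated replicate 2 gave 7 and 5 of 126, against 5.14% and 5.96% of all regions in that version. ATF3, a stress-induced AP1 partner, had a region 3.2 kb from its start that ranked 606 and 1170 without, 98 and 218 with TNFα and 130 and 310 with cobimetinib. A second one ranked 3724 and 3142 without and 1384 and 948 with TNFα. KLF6, an early response factor, had a region 19.2 kb away that ranked 6404 and 15081 without and 995 and 1777 with TNFα. MAFF, a small MAF protein, had a region 4.3 kb away that ranked 720 and 814 without and 327 and 222 with TNFα. The lower region, in ERCC1 and 11.1 kb from FOSB, ranked 1042 and 772 without and 3126 and 2197 with TNFα. At promoters 5 of 21 genes were better in both TNFα libraries, among them IER2 and MAP3K8, and EGR1, an immediate early factor, was worse, at 2840 and 2056 against 4342 and 8005. The shares over all genes with a promoter region were 13.1% better and 15.6% worse.

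Protease, matrix and matrix adhesion genes had 4 of 87 regions higher and 0 lower (2.57% and 0.668% of all regions). With untreated replicate 2 left out, these were 6 and 4 of 82, against 5.14% and 5.96% of all regions in that version. CD44, the hyaluronan receptor, had a region 2.9 kb from a start that ranked 23272 and 20915 without and 7885 and 5400 with TNFα. With cobimetinib the CD44 region ranked 21062 in replicate 1 and had no peak in replicate 2.

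Over the 6 lists together, 23 of 552 regions were higher (4.17%) and 4 lower (0.725%), against 2.57% and 0.668% of all regions. Of the 133 genes 19 had a higher region, 4 a lower one and 110 neither. The median difference in mean log2 rank (untreated minus TNFα) was 0.22 for the lists and -0.06 for all regions, and it lay between 0.14 and 0.33 in each of the 6 lists. With untreated replicate 2 left out, the 6 medians lay between 0.036 and 0.124, and the median was 0.075 for all lists and 0.046 for all regions. Regions near the list genes that were not called ran from -1.73 to 2.48 on this scale. Without untreated replicate 2, 29 of 509 list regions were higher (5.7%) and 17 lower (3.34%), against 5.14% and 5.96% of all regions. In that version the higher share of the lists was near that of all regions. No list was given a test.

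**Figure D4:**
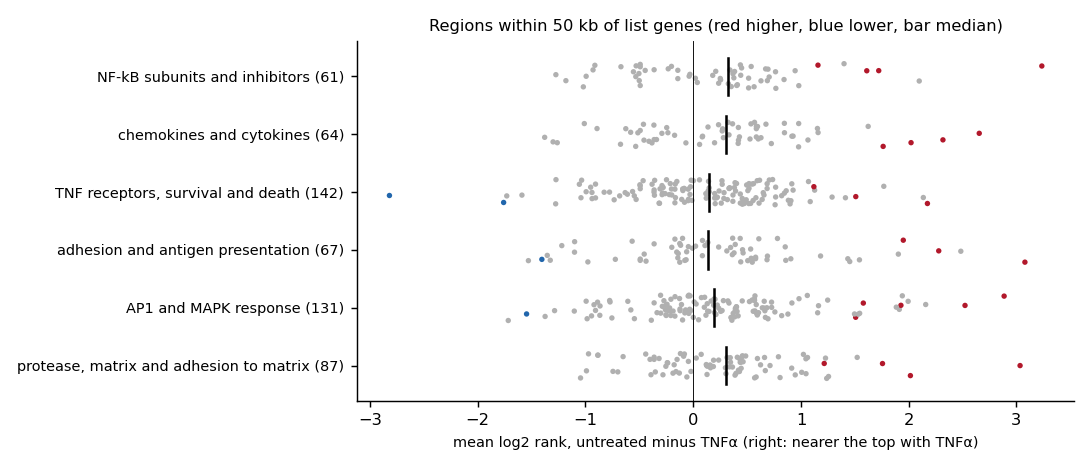
Difference in mean log2 rank, untreated minus TNFα, for regions within 50 kb of the genes of each list (number of regions in brackets), with vertical bars at the median; red points are higher and blue points lower regions. Medians lie to the right of 0 in all 6 lists, from 0.14 to 0.33, against -0.06 for all regions; without untreated replicate 2 they lie between 0.036 and 0.124, against 0.046.

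Loci were also scored as the mean normal score over all regions within 50 kb of a protein-coding start. No gene of 16552 passed limma (0%), and 442 had an unadjusted p under 0.05. Among 9872 genes with at least 3 regions, the groups did not overlap in the higher direction at 1676 (17%) and in the lower at 1671 (16.9%). The largest difference was at MAMDC2, a secreted proteoglycan gene, whose scores were -0.17 and -0.34 without and 1.01 and 1.18 with TNFα (limma, difference 1.35 ± 0.27, SE, adjusted p = 0.912). TNIP1 was also among the 10 largest, at 0.05 and -0.15 against 0.83 and 1.23. So were UBAP1, the neighbours STAT5A and STAT5B, which share the STAT3 exon above, MYD88, the adaptor of Toll-like and interleukin-1 receptors, with its neighbour OXSR1, and GARIN1A, DSC3 and BACH2. The MYD88 locus included a region 12.1 kb away with no untreated peak that ranked 11064 and 9524 with TNFα. The leading loci in the lower direction were DEGS1, FKBP9, GFI1B, HDGFL2, IGF2R, PBK, ZNF385B, KCNG4, CACNB4 and CFAP97D1, with differences from -1.07 to -0.82. Without untreated replicate 2 the difference at PBK shrank to -0.21 and at ZNF385B to -0.46. Among the leading higher loci, BACH2 had no higher region and scored 0.482 and -1.015 without and 0.579 and 0.959 with TNFα. The BACH2 difference thus rested largely on untreated replicate 2. UBAP1 (0.486 and -0.445) and MYD88 (0.096 and -0.682) also scored lower in untreated replicate 2 than in replicate 1.

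Some genes carried several higher regions, and these were chosen after their values were seen. PHLDB2, a gene of the cell cortex, had 4 higher regions, out of 7 regions in the span from the first to the last of them. Among the 4 higher ones an exonic one ranked 240 and 631 without and 65 and 68 with TNFα, and 2988 and 11874 with cobimetinib. An intronic one ranked 396 and 2916 without, 92 and 92 with TNFα and 23300 and 22731 with cobimetinib. MB21D2 and PPARD had 3 each. Of the 107 higher promoters, a few outside the lists were also picked after their values were seen. Promoters of the pathway outside the lists that were not called were not counted. One pick was TANK, a TRAF-binding regulator of NF-κB, at 21096 and 23481 without and 4264 and 1968 with TNFα. TICAM1, the Toll-like receptor adaptor TRIF, stood at 10636 and 22618 against 3996 and 5163. EREG, an EGF receptor ligand, stood at 4384 and 6512 against 1510 and 1842, and ETS1, a MAPK-responsive factor, at 6998 and 8480 against 2058 and 1911.

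Promoters made up a larger share of lower than of higher regions. Of the 879 higher regions 107 were within 1 kb of a protein-coding start (12.2%, 95% Wilson interval 10.2 to 14.5%), as against 122 of the 228 lower regions (53.5%, 47.0 to 59.9%) and 30.9% of all regions. Regions favoured by mixed pairs had promoter shares of 69.4% and 47.7% for pairs with untreated replicate 1 and 20.8% and 38.7% for pairs with untreated replicate 2, so the share of lower regions lay within the range of mixed pairs and that of higher regions below it. Introns held 40.0% of higher regions and intergenic sequence 39.2%. Intervals cover counting error only. The higher regions had median ranks of 14182 and 20915 in the untreated, 3634 and 3494 in the TNFα and 13797 and 14066 in the cobimetinib libraries. For the lower regions these were 3306 and 2480, 10182 and 11024, and 5144 and 5324.

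The lower region with the widest gap was in an intron of TMEM242, a mitochondrial assembly factor gene, at chr6:157310387-157311054. It ranked 46 and 61 in the untreated and 1067 and 486 in the TNFα libraries, a 7.97-fold gap. The next were mostly promoters. PLIN5, a lipid droplet protein, ranked 3172 and 1924 at its promoter without TNFα and 16880 and no peak with it. A region in FKBP5, a chaperone of the glucocorticoid receptor, ranked 3274 and 3142 without and 17394 and 20500 with TNFα. The EXOC7 promoter (a subunit of the exocyst) ranked 984 and 1286 without and 9464 and 6270 with TNFα. The LIN7C promoter ranked 428 and 598 without and 2703 and 3154 with TNFα. The TGOLN2 promoter (a trans-Golgi protein) ranked 548 and 584 without and 2562 and 3676 with TNFα. By the rule for a lower region, no TNFα rank in these promoters could reach the untreated range. The other lower leaders were the MATCAP1 promoter given above, an intron of HIC2, an intron of MRPS35 and the RPP25L promoter, with gaps of 4.92, 4.46 and 4.34 for the last 3.

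The κB consensus had its highest share, among the distal sets examined, in higher regions, though counting intervals of some sets overlapped. In windows of 500 bp around the best peak, 122 of 772 distal higher regions held a match (15.8%, Wilson interval 13.4 to 18.5%), against 6.61% of all 23607 distal regions, 7.5% of distal regions held by all 4 libraries and 4 of 106 distal lower regions (3.77%). In the distal regions that mixed pairs favoured the share was 10.7% (6.67 to 16.6%), 6.25% (3.06 to 12.3%), 3.21% (1.38 to 7.28%) and 9.59% (4.72 to 18.5%), and the first and last of these intervals overlap that of the higher regions. Regions higher than untreated replicate 1 alone had a share of 13.1% (11.3 to 15.1%). These 1209 distal regions include the 772 higher ones by definition, so their share is not a separate check without untreated replicate 2. At promoters the shares were 15.9% of higher and 12.5% of all regions, and 7.84 to 19.5% for mixed pairs, so higher promoters lay within the range of mixed pairs.

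The AP1 word was found in 48.6% of distal higher regions (45.1 to 52.1%), 34.9% of distal lower regions and 30.5% of all distal regions. It was also found in 42.9% of those held by all 4 libraries, and in 29.5 to 41.1% of those favoured by mixed pairs. Both motifs together occurred in 6.99% of distal higher and 2.11% of all distal windows. The mean GC content of the windows was 43.9% for distal higher and 44.4% for all distal regions. A match is a description of the sequence and not a measured binding site, and the shares were not tested.

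**Figure D5:**
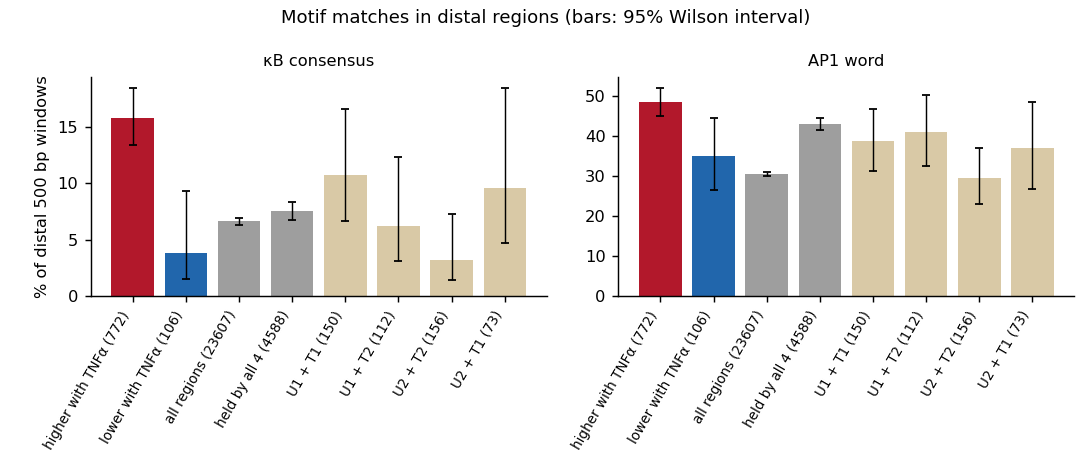
Share of distal 500 bp windows with at least 1 match to the κB consensus (left) or the AP1 word (right), with the number of regions in brackets and 95% Wilson intervals as error bars; tan bars are regions favoured by mixed pairs. Higher regions have the largest share for κB, 15.8%, against 3.21 to 10.7% for mixed pairs, and their AP1 share of 48.6% is nearer that of regions held by all 4 libraries, 42.9%.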

How the data were processed

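H3K27ac peak lists of 4 HCT116 libraries (untreated and TNFα, 2 each) were compared. Per the study's methods the authors trimmed reads with BBDuk, aligned them to hg38 with BWA 0.7.15, filtered them on mapping quality, called peaks with MACS2 2.1.1 in each library without an IgG background, in paired-end and single-end mode, and merged both lists with bedtools. Replicates were not pooled. The deposited value is the score of the authors' peak caller, a whole number of at least 20 that rises with depth, so it was used only for ranks within a library. Read counts were not used here, and the count test of the study was not repeated.

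The 20000 highest peaks per library were merged within 100 bp. Positions refer to starts of protein-coding transcripts in GENCODE 44 on hg38, whose chromosome lengths held all peaks on 24 chromosomes. Promoters lay within 1 kb, loci within 50 kb. Normal scores of ranks were fitted with limma 3.58.1 (R 4.3.3, two-sided, Benjamini-Hochberg, 0.05). The fit was tested on simulated data with equal spread in all libraries. The untreated libraries here differed more than the TNFα libraries, so that test does not cover these data. The p-values measure only the spread between these libraries. All other counts are descriptions. Genes named were the 10 regions and the 10 loci of at least 3 regions with the largest difference in each direction and the list members with a called region, with promoter ranks of list members; some of these are not reported here. Members listed only with TNFα, array regions, genes of several higher regions and higher promoters outside the lists were added after their values were seen. The members and lists were chosen with earlier results of these data known. Motif shares were counted in 500 bp windows, and 3 mitochondrial regions were not searched. The stretches shown came from a search of whole regions, so they are not set against those shares. The labels do not say that same-numbered libraries belong together, so the numbers were not taken as pairs. Their deviations correlated at r = 0.0713 across regions. Because untreated replicate 2 stood apart from all other libraries, this value cannot decide whether the numbers pair. Alternatives are given at the end.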

Additional observations from a re-analysis of the deposited data

How the results depend on the processing

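Higher regions numbered 879 and lower regions 228; taking 10000 or 40000 peaks per library gave 575 and 1718 higher regions and, for 40000, 467 lower. Ranks in the whole deposited list gave 2175 higher and 549 lower, and shifted the median difference of all regions from -0.06 to 0.07 on the log2 scale. A 4-fold gap gave 145 and 13, any gap 6617 and 3505, and only regions with a peak in all 4 libraries 480 higher. Leaving out a replicate gave 1348 to 3768 higher and 554 to 4908 lower regions, the counts being largest without untreated replicate 1; lower outnumbered higher regions without either untreated replicate (1348 and 1563 without replicate 2, 3768 and 4908 without replicate 1). Gained regions (1383) numbered 871 with 10000 peaks, 355 with absence set outside the 40000 highest, and 1708 to 6275 with a replicate left out. Lost regions (388) numbered 677 with 40000 peaks, 56 with the stricter absence, 190 where 50% of a region's length had to be covered, and 719 to 8466 with a replicate left out. The 8 regions past limma became 5 with the cobimetinib libraries in the fit and 0 with 10000 or 40000 peaks, the deposited-list rank, complete regions or sample quality weights, and 0 to 8890 with a replicate left out. With the replicate block limma called 10 regions and 10 genes, against 8 and 0; the numbers are not known to pair the libraries. The other alternatives kept the gene count at 0. Merging without a distance moved no count by over 1.5 times. Named regions and loci kept their direction under every alternative run. They were chosen because their groups did not overlap, so leaving out a library could hardly reverse them, and the kept direction is no separate support. The value moved by more than the replicate SD in 69 region values and 48 locus values, against 251 and 92 that did not. The median of the receptor, survival and death list ran from -0.009 (without TNFα replicate 1) to 0.328 over the alternatives, the only list median that changed sign; the cause was not tested. Over the alternatives the medians ran from 0.036 to 0.647 for NF-κB subunits and inhibitors, 0.105 to 0.606 for chemokines, 0.031 to 0.523 for adhesion, 0.029 to 0.504 for AP1 and MAPK, 0.124 to 0.599 for proteases, 0.075 to 0.494 for all lists and -0.179 to 0.235 for all regions, which also changed sign. Depth is unknown, so no limit of detection can be given.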
